A study of Rattus norvegicus with 4 samples.

Results

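The cells described here are muscle satellite cells of the rat that carried at least 1 unique molecular identifier (UMI, a tag that counts each captured RNA molecule once) of Cdkn1a or Cdkn2a, 2 genes of cell cycle arrest. They were chosen from single-cell counts by 2 steps. A barcode counted as a satellite cell when it held at least 500 UMIs, at least 200 genes, at most 20% mitochondrial UMIs and at least 2 UMIs over Pax7, Myf5, Cdh15, Myod1 and Myog. A satellite cell was a member when it also held at least 1 UMI over Cdkn1a and Cdkn2a. The rule found 256 members among 655 satellite cells, out of 14233 kept cells and 17504 deposited barcodes. The UMIs of these 7 genes chose the members, so their levels and the share of members are given as a description, with no test.

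The series holds 4 libraries of total cells, made from untreated rats aged 12 months: from a muscle of the lower leg, the tibialis anterior (TA), and from the muscles around the eye, the extraocular muscles (EOM). For each muscle there is 1 library labelled wild-type (WT) and 1 labelled DMD, for Duchenne muscular dystrophy, in which dystrophin is lost and limb muscle degenerates while eye muscles stay comparatively intact. The labels name no strain, dystrophin allele, sex or number of animals per library. In all 4 samples the title states the opposite disease state from the disease state field. The field was followed, "labelled DMD" means this field throughout, and with the titles every difference between the labels would have the opposite sign. Dmd itself did not check the labels: members held 105.8, 84.4, 56.2 and 47.9 CPM (UMIs of the gene per 1000000 UMIs of the cells) of Dmd in TA labelled WT, TA labelled DMD, EOM labelled WT and EOM labelled DMD, and a 3' tag need not touch a mutated part of the gene. Of the kept barcodes 11 occurred in more than 1 library, and none of them was a member. With 1 library per group no difference between libraries has a replicate check or a p-value, and every interval in parentheses is a 95% interval for counting error alone.

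Cdkn1a encodes p21, which inhibits cyclin-dependent kinases and is a classic transcriptional target of p53. It also rises when myoblasts leave the cell cycle to differentiate. Cdkn2a encodes p16, which keeps the retinoblastoma protein active by inhibiting CDK4 and CDK6, and, from another reading frame, p19Arf, which stabilises p53 by inhibiting MDM2. Both products share the end of the transcript, so a 3' tag cannot tell them apart. Satellite cells are the stem cells of skeletal muscle: they rest under the basal lamina, divide as myoblasts after damage, and either fuse or return to rest. Both inhibitors are widely used as markers of senescence, a lasting arrest, but neither marks it alone.

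The promoters of both genes are shown because the UMIs of these genes chose the cells. They are the 250 bases before the start that RefSeq annotates in the build GRCr8, each written 5′ to 3′ on the strand of its gene. The table gives 1 start per gene, so only 1 of the alternative first exons of Cdkn2a is covered. In Cdkn1a the capitals mark a palindromic p53 element of 20 bases with 1 mismatch to its consensus, and in Cdkn2a they mark a GC box, GGGCGG, the core of many Sp1 sites. The Cdkn1a promoter lies at chr20:7150682-7150931 on the plus strand and the Cdkn2a promoter at chr5:109107957-109108206 on the minus strand.
Cdkn1a: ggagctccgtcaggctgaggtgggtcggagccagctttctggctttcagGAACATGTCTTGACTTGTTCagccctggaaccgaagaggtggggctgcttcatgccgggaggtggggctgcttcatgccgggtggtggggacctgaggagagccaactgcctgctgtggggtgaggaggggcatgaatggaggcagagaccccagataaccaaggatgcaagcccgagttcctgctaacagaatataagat
Cdkn2a: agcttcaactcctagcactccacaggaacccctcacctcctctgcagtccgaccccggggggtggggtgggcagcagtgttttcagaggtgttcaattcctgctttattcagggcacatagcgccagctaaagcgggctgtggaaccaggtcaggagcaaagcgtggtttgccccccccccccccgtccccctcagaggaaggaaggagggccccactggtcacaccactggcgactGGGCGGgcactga
The p53 element, GAACATGTCTTGACTTGTTC, begins 201 bases before the annotated start of Cdkn1a. Of 33469 promoters of the same length, 15 (0.0448%) held such an element when both strands were searched without a spacer and with at most 1 mismatch. Among the 19 promoters matched for a list of other p53 targets, that of Ccng1 held one. GGGCGG, searched on both strands, stood in 30.5% of all promoters, and CANNTG, the E-box read by Myod1 and Myog, in 65.5%. Cdkn1a held 1 E-box and no GC box in this window, and Cdkn2a held 1 GC box and no E-box. These are matches of letters, not measured sites.

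Members made up 8 of 53 satellite cells in TA labelled WT (15.1%, exact Clopper-Pearson interval 6.75 to 27.6%). In TA labelled DMD they were 124 of 228 (54.4%, 47.7 to 61.0%). They were 24 of 131 in EOM labelled WT (18.3%, 12.1 to 26.0%) and 100 of 243 in EOM labelled DMD (41.2%, 34.9 to 47.6%). Both libraries labelled DMD thus held a larger share than both labelled WT. The chance of catching 1 UMI grows with depth, and members were deeper than the other satellite cells: their median was 8689 against 6713 UMIs in TA labelled WT, 4051 against 1198 in TA labelled DMD, 6945 against 5728 in EOM labelled WT and 5488.5 against 5090 in EOM labelled DMD. Cells were therefore also thinned to 1000 UMIs, which left out shallower ones: 113 of 124 members and 70 of 104 other satellite cells remained in TA labelled DMD, and none was lost in the other libraries. With the rule applied again to the thinned cells, members were 2 of 33 (6.06%, 0.743 to 20.2%), 53 of 125 (42.4%, 33.6 to 51.6%), 3 of 73 (4.11%, 0.856 to 11.5%) and 17 of 129 (13.2%, 7.87 to 20.3%) in the same order. The thinned interval of EOM labelled DMD overlapped those of both libraries labelled WT. The share was highest in TA labelled DMD with and without thinning.

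Cdkn1a is not restricted to arrested cells, and kept cells without any UMI of the 5 satellite genes served as the level outside the satellite cells. The gene had a UMI in 25.5%, 20.2%, 27.1% and 33.9% of those cells in TA labelled WT, TA labelled DMD, EOM labelled WT and EOM labelled DMD, where they held medians of 2450, 1165, 3337 and 4187 UMIs. In satellite cells the shares were 15.1%, 50%, 18.3% and 40.3%. After thinning to 1000 UMIs Cdkn1a was seen in 32.8% (26.0 to 40.1%) of satellite cells of TA labelled DMD and in 13.5% (12.5 to 14.5%) of the cells outside them. In the other libraries the thinned share in satellite cells, 3.77%, 4.58% and 11.9%, lay below that outside them, 15.3%, 13.5% and 14.6%, with intervals that overlapped in EOM labelled DMD. The thinned share was thus above that outside the satellite cells in TA labelled DMD alone.

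Cdkn2a behaved differently. It had a UMI in 58 of 228 satellite cells of TA labelled DMD (25.4%, 19.9 to 31.6%), but in 1 of 53 in TA labelled WT, 1 of 131 in EOM labelled WT and 3 of 243 in EOM labelled DMD. Of those 58 cells, 21 also held a UMI of Myog, the gene of the rule that starts terminal differentiation. Outside satellite cells Cdkn2a was rare in every library, in 0.195%, 0.431%, 0.54% and 0.151% of cells. At 1000 UMIs per cell it was seen in 22 of 183 satellite cells of TA labelled DMD (12.0%, 7.69 to 17.6%), against 0.217% of the cells outside them. It was seen in none of the 53, 131 and 243 satellite cells of TA labelled WT, EOM labelled WT and EOM labelled DMD, which allows shares of up to 5.66%, 2.29% and 1.23% by a floor of 3 counts, and of 6.72%, 2.78% and 1.51% by the exact interval. The satellite cells of TA labelled DMD held 134 Cdkn2a UMIs, 24 of them in 1 cell, against 1, 1 and 7 in those libraries.

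**Figure D1:**
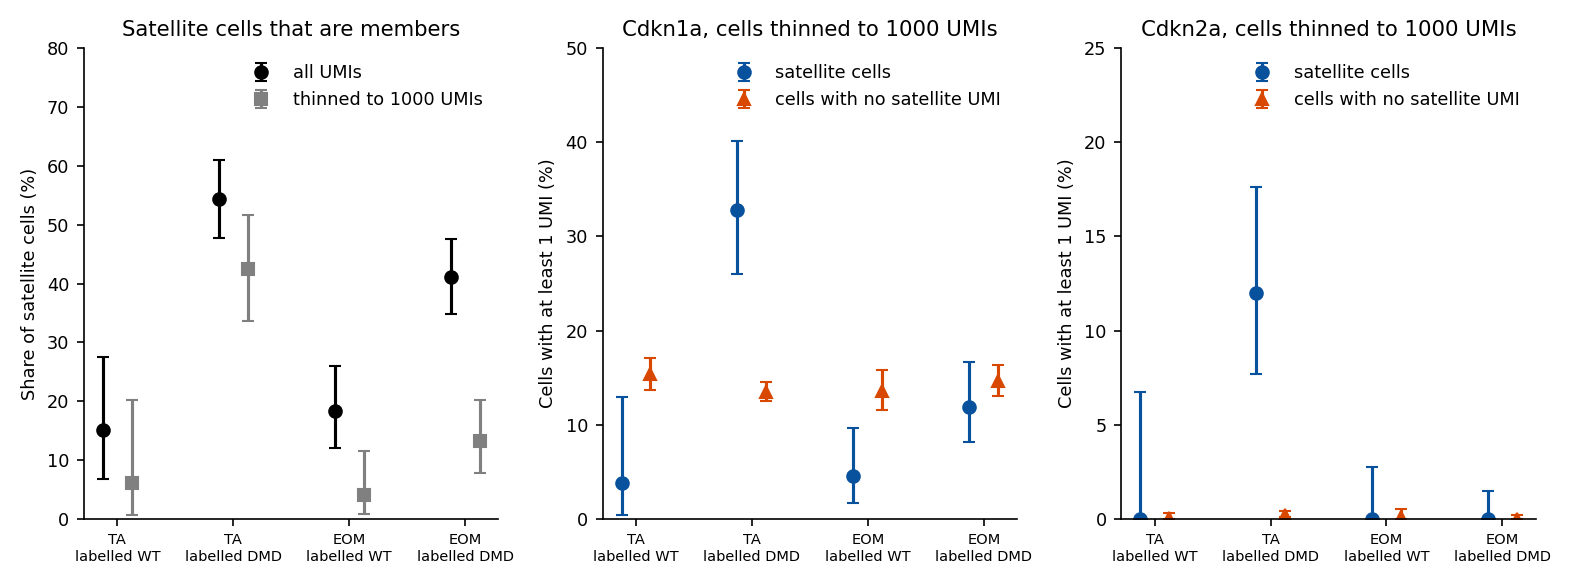
Left, share of satellite cells that are members in each library (%), with all UMIs and thinned to 1000 UMIs per cell. Middle and right, share of cells with a Cdkn1a or Cdkn2a UMI after thinning (%), in satellite cells and in kept cells without satellite UMIs. Bars are exact 95% intervals for counting error, and TA labelled DMD is the library whose satellite cells lie above the other cells for both genes.

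Members also differed in how many arrest UMIs they held. In TA labelled DMD 375 Cdkn1a UMIs lay in 114 members, with up to 36 in 1 cell, and 134 Cdkn2a UMIs lay in 58 members, with up to 24 in 1 cell. The same counts were 213 and 7 UMIs over 98 and 3 members in EOM labelled DMD, 43 and 1 UMIs over 24 and 1 members in EOM labelled WT, and 11 and 1 UMIs over 8 and 1 members in TA labelled WT. As a level, members held 565.1 CPM of Cdkn1a in TA labelled DMD and 166.2, 219.8 and 299.9 CPM in TA labelled WT, EOM labelled WT and EOM labelled DMD. Of the members of TA labelled DMD, 66 had Cdkn1a only, 10 had Cdkn2a only and 48 had both. Elsewhere members with Cdkn1a only made up 7 of 8, 23 of 24 and 97 of 100. Many members rest on a single arrest UMI: 4 of 8, 45 of 124, 13 of 24 and 59 of 100 in TA labelled WT, TA labelled DMD, EOM labelled WT and EOM labelled DMD.

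In TA labelled DMD Cdkn2a was seen more often in cells that had Cdkn1a than in cells without it. Of 114 satellite cells with Cdkn1a, 48 had Cdkn2a (42.1%, 32.9 to 51.7%), against 10 of 114 without (8.77%, 4.29 to 15.5%). The cells with Cdkn1a were also deeper, with a median of 4112 against 1240.5 UMIs. After thinning to 1000 UMIs the shares were 16 of 104 (15.4%, 9.06 to 23.8%) and 6 of 79 (7.59%, 2.84 to 15.8%), and their intervals overlapped.

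**Figure D2:**
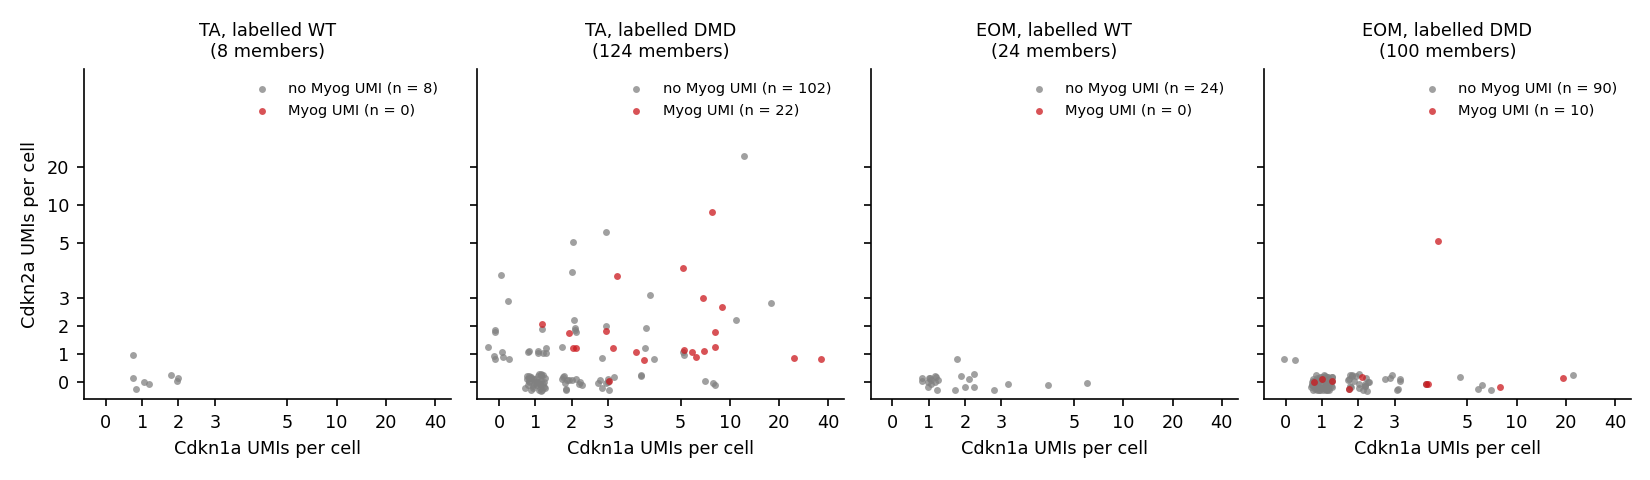
Cdkn1a UMIs (x) and Cdkn2a UMIs (y) per member cell in each library, with small random offsets so that equal values can be seen and both axes linear up to 5 and logarithmic above. Red points are members with a Myog UMI. Both genes were seen in 48 of 124 members of TA labelled DMD, against 1 member in each of the other 3 libraries.

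Of 22 marker genes of satellite cells that the rule did not use, most had a UMI in members. They numbered 16, 19, 16 and 18 in TA labelled WT, TA labelled DMD, EOM labelled WT and EOM labelled DMD. Fgfr4, a fibroblast growth factor receptor of satellite cells, had a UMI in 7 of 8, 70 of 124, 17 of 24 and 69 of 100 members of TA labelled WT, TA labelled DMD, EOM labelled WT and EOM labelled DMD, with 408, 351, 210 and 197 CPM. The other satellite cells held 437, 364, 348 and 286 CPM of Fgfr4. Chodl, a surface lectin gene of these cells, stood at 1753, 548.5, 792 and 577 CPM in members. Pax7, which is part of the rule, was seen in 7 of 8, 61 of 124, 16 of 24 and 55 of 100 members. Near the threshold of the rule, 19 members of TA labelled DMD had exactly 2 satellite UMIs, of which 6 (31.6%) had Fgfr4, while 63 cells just outside had 1 satellite UMI and an arrest UMI, of which 9 (14.3%) had Fgfr4. In EOM labelled DMD 9 cells lay just inside and 28 just outside, with Fgfr4 in 1 and 0 of them. At the other edge, members with exactly 1 arrest UMI had Fgfr4 in 51.1% and 76.3% of cells in TA and EOM labelled DMD, and satellite cells with none in 36.5% and 70.6%.

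Markers of other cell types were also counted in the 8, 124, 24 and 100 members. In EOM labelled DMD a summed list of 9 myofibre genes stood at 19833 CPM, against 3176 CPM in the other satellite cells. It stood at 90.7, 2330 and 138 CPM in members of TA labelled WT, TA labelled DMD and EOM labelled WT, against 4395, 1517.5 and 611 CPM in the rest. In the rest of TA labelled WT, 2 cells held 1117 of 1146 UMIs of Acta1, Ckm, Mylpf, Tnnt3 and Tnnc2. The same counts were 302 of 356 in EOM labelled WT, and 164 of 263 and 1667 of 1990 in TA and EOM labelled DMD. Of 11238 UMIs of Acta1, Ckm, Mylpf, Tnnt3 and Tnnc2 in members of EOM labelled DMD, 4925 lay in 2 cells, and 13 of 100 members had 10 or more. The macrophage list stood at 870 CPM in the same library, with 314 of 321 UMIs of the C1q genes in 2 cells. It was at 15.1, 37.7 and 532 CPM in TA labelled WT, TA labelled DMD and EOM labelled WT. The endothelial list stood at 2100, 1731, 1252 and 108 CPM in TA labelled WT, TA labelled DMD, EOM labelled WT and EOM labelled DMD, against 434, 3627, 80.8 and 70.4 CPM in the other satellite cells. A T cell list was at 572.5 CPM in EOM labelled WT and at most 1.51 CPM in members of the other libraries, and haemoglobin and other red cell genes stood at 2105 CPM in TA labelled DMD against 95.7 to 414 CPM elsewhere. Some of these counts come from 1 or 2 cells, as 103 of 105 Fabp4 UMIs from 1 cell in TA labelled WT and 83 of 83 Tyrobp UMIs from 1 cell in EOM labelled WT. The part of doublets and of free RNA in the gene values below was not tested, and results that change without such cells are given with both values.

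Members were next set against the 399 satellite cells without an arrest UMI, within each library. The counts of each set were summed per library, and edgeR's quasi-likelihood test with the library as a block was run over 8 sums and 5503 genes other than the 7 of the rule. No gene passed an adjusted p of 0.05 in either direction (0 higher, 0% of genes tested, and 0 lower, 0%). At an unadjusted p under 0.05 in edgeR there were 174 genes higher and 134 lower in members, 308 of 5503 in all. With no difference at all, a share of about 0.05 of the genes would pass that threshold. DESeq2, over 15125 genes, called 6 higher and 0 lower. Over the genes tested the median log2 fold was -0.00.

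No gene met the rule for naming in this comparison, and the genes described next were chosen after their values were seen, as those closest to the threshold. Tubb6, a beta tubulin that is raised in regenerating muscle, had a log2 fold of 1.53 ± 0.24 (SE) in edgeR, with an adjusted p of 0.138. Members held 30.2, 224.5, 61.3 and 112.6 CPM of Tubb6 in TA labelled WT, TA labelled DMD, EOM labelled WT and EOM labelled DMD, and the other satellite cells 16.8, 52.0, 22.6 and 45.2 CPM. The level was thus higher in members in each of the 4 libraries, and the TA labelled DMD ratio was 4.32 (2.29 to 9.2). Members of TA labelled WT held 66176 UMIs in all, so the value there rests on too few UMIs to show a direction. As Tubb6 was picked from this fit, its shared direction is not separate support. Igfbp6, a binding protein of insulin-like growth factor 2, stood at 15.1, 386, 25.6 and 201 CPM in members and at 3.36, 145.5, 21.0 and 42.5 CPM in the rest, with a log2 fold of 1.62 ± 0.28 and the same adjusted p of 0.138 in edgeR. Its level also rests on few cells outside TA labelled DMD: 97 of 143 UMIs in members of EOM labelled DMD lay in 1 cell, and in TA labelled WT 1 UMI stood against 1. Lgals1, which encodes galectin 1, had 2599, 4542, 2331 and 1774 CPM in members against 1917, 2037, 1630 and 1153 CPM, a log2 fold of 0.69 ± 0.13 with an edgeR adjusted p of 0.141. Pfn1, which encodes the actin-binding protein profilin, had 1315, 1555, 1125 and 739 CPM against 777, 1112, 521 and 393 CPM, a log2 fold of 0.82 ± 0.15 with an edgeR adjusted p of 0.141. Of the Pfn1 UMIs in members, 1 cell held 215 of 525 in EOM labelled DMD and 102 of 220 in EOM labelled WT. For Lgals1 1 cell held 419 of 1260 in EOM labelled DMD. In TA labelled DMD the highest cell held 97 of 1032 for Pfn1 and 309 of 3014 for Lgals1. Over the settings tried the adjusted p ran from 0.000201 to 1 for Tubb6, 8.72e-06 to 1 for Igfbp6, 0.000175 to 1 for Lgals1 and 0.000325 to 1 for Pfn1.

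More of the genes near the threshold rested on few cells. Stmn1, which encodes the microtubule regulator stathmin and is high in dividing cells, stood at 196, 75.3, 363 and 111 CPM in members and at 13.4, 62.4, 11.3 and 7.97 CPM in the rest, with a log2 fold of 3.33 ± 0.59 and an edgeR adjusted p of 0.138. In EOM labelled DMD 72 of its 79 UMIs came from 1 member, and in EOM labelled WT 47 of 71. S100a4, a calcium-binding protein gene, had a log2 fold of 2.26 ± 0.41 (edgeR adjusted p 0.138), and 151 of its 152 UMIs in members of EOM labelled WT came from 1 cell. In TA labelled DMD, by contrast, S100a4 was seen in 107 of 124 members and stood at 3611 CPM against 1777 CPM in the other satellite cells. Neb, which encodes the thin filament protein nebulin, was at 45.3, 494, 20.4 and 56.3 CPM in members, and 236 of its 328 UMIs in TA labelled DMD came from 1 cell.

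No gene of any list passed this test, and the lists are described by their counts. Of 12 tested p53 targets, 7 had a positive log2 fold, with a median of 0.05, and none was called. Ccng1, a cyclin G gene driven by p53, had 75.6, 262, 40.9 and 213 CPM in members against 37.0, 151, 48.5 and 102 CPM in the rest. Its log2 fold was 0.75 with an edgeR adjusted p of 0.778. Of 16 quiescence genes 3 were positive, with a median of -0.24, and Gpx3 and Nppc were among the lower ones with log2 folds of -0.34 and -0.54. Of 15 genes of the S100, annexin, galectin and vimentin list 13 were positive, with a median of 0.51, and none was called. Of 20 secreted factors linked to senescence 8 were positive, with a median of -0.05. Over all genes tested 2741 of 5503 were positive, so the S100 list lay above and the quiescence list below that level.

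The other inhibitors of cyclin-dependent kinases had no common direction between members and the rest. Cdkn1b, which encodes p27, had 242, 219, 261 and 203 CPM in members of TA labelled WT, TA labelled DMD, EOM labelled WT and EOM labelled DMD, and 212, 369, 233 and 295 CPM in the rest. Cdkn1c, which encodes p57, had 0, 307, 225 and 370 CPM in members against 33.6, 125, 171 and 473 CPM, but 138 of its 204 UMIs in members of TA labelled DMD lay in 1 cell. Cdkn2b, which encodes p15 and lies beside Cdkn2a, was at 58.8 CPM in members of TA labelled DMD and at 7.04 CPM in EOM labelled DMD, with no UMI in members of the libraries labelled WT. Genes of dividing cells were seen in few members: Mki67 had 7 UMIs in 2 of 124 members of TA labelled DMD and 46 UMIs in 7 of 100 members of EOM labelled DMD, 40 of them in 1 cell. The proliferation list of 19 genes summed to 438, 303, 905 and 522 CPM in members of TA labelled WT, TA labelled DMD, EOM labelled WT and EOM labelled DMD and to 171.5, 322, 145.5 and 166 CPM in the rest, higher in members of 3 libraries. Cenpf, needed at mitosis, had 37 and 46 UMIs in the same libraries, of which 29 and 45 lay in 1 cell each.

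**Figure D3:**
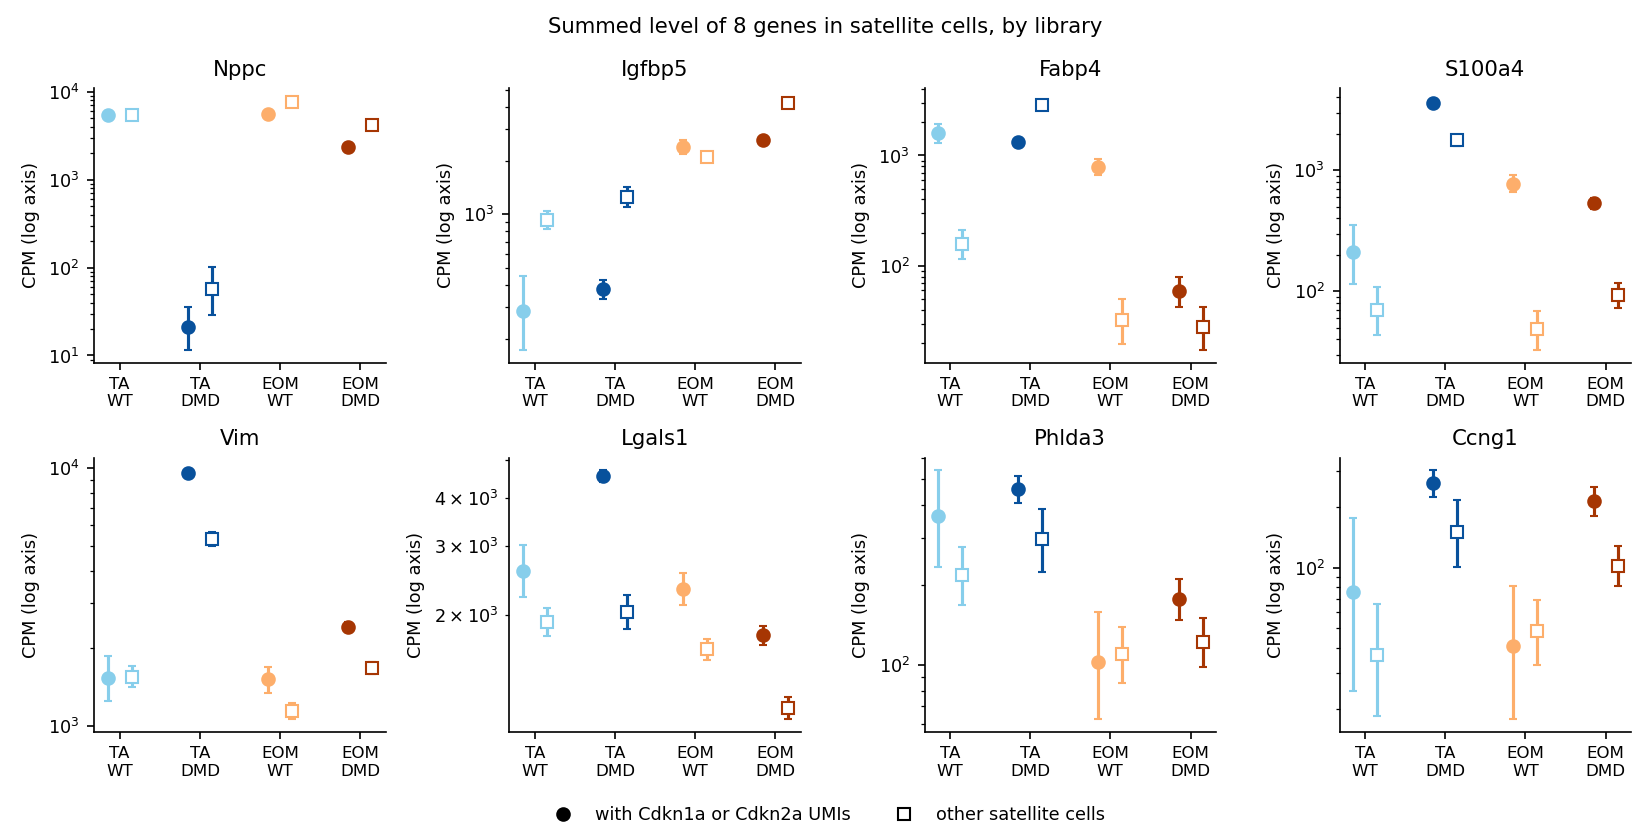
Level of 8 genes (CPM, log axis) in members (filled circles) and in the other satellite cells (open squares) of each library, with 95% Poisson intervals for counting error, where TA WT stands for TA labelled WT and so on. Nppc was low in both sets of TA labelled DMD, at 21.1 and 57.2 CPM, and S100a4 was high in both, at 3611 and 1777 CPM.

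Members of TA labelled DMD were then compared with members of EOM labelled DMD, 124 against 100 cells with 663628 and 710226 UMIs. Of 1723 genes with at least 100 CPM in either, 155 (9.00%) were 2-fold or more higher and 118 (6.85%) 2-fold or more lower in TA, on log2 ratios with a prior of 10 CPM and a median of 0.15. In the satellite cells without arrest UMIs of the same 2 libraries, 212 of 1722 genes (12.3%) were higher and 109 (6.33%) lower. The values below are therefore set beside those of the other satellite cells, and no difference between both sets was tested.

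The lower genes were headed by Nppc, the gene of C-type natriuretic peptide, which is linked to quiescent satellite cells. Members held 5501, 21.1, 5577 and 2329 CPM in TA labelled WT, TA labelled DMD, EOM labelled WT and EOM labelled DMD, and the rest 5471, 57.2, 7699 and 4167 CPM. TA labelled DMD was thus the low library in both sets, 110-fold (65.6 to 202) below EOM labelled DMD in members and 72.9-fold (40.7 to 146) in the rest. Chrdl2, a BMP antagonist gene, was also lowest in TA labelled DMD, with 181, 3.01, 511 and 206 CPM in members and 2 UMIs in all in TA labelled DMD. Heyl, a Notch target, stood at 438, 52.7, 169 and 137 CPM in members. Igfbp5, a binding protein of insulin-like growth factors, was at 287, 378, 2382 and 2598 CPM, low in both TA libraries, and at 931, 1252, 2087 and 4184 CPM in the rest. Gpx3, which encodes a secreted glutathione peroxidase, differed less, at 4827 and 3916 CPM. Of the 12 quiescence genes tested in this comparison 3 were lower (Nppc, Chrdl2 and Heyl), 1 was higher (Col5a3) and the median was -0.20. The 3 lower genes reached the 100 CPM needed for testing in EOM alone, and Col5a3 in TA alone. None of them could have counted in the other direction.

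The targets of p53 were on the higher side in TA. Of 8 tested, 4 were 2-fold or more higher (Pmaip1, Bax, Phlda3 and Plk2) and none was lower, with a median of 1.07 against 0.15 over all genes. Of these 4, Pmaip1, Bax and Plk2 reached the 100 CPM needed for testing in TA alone, so they could not have counted as lower. After thinning 3 of 9 were higher and 1 was lower, with a median of 0.64, and with at least 2 arrest UMIs 2 of 7 were higher. Phlda3, an inhibitor of AKT, stood at 363, 457, 102 and 177 CPM in members of TA labelled WT, TA labelled DMD, EOM labelled WT and EOM labelled DMD, 2.57-fold (2.08 to 3.19) higher in TA than in EOM labelled DMD. Both TA libraries were thus above both EOM libraries, but in TA labelled WT 15 of 24 Phlda3 UMIs lay in 1 member. Bax, which promotes cell death at the mitochondrion, was likewise higher in both TA libraries, with 196, 173, 46.0 and 53.5 CPM. Plk2 was at 136, 212.5, 107 and 81.7 CPM, and Pmaip1, the gene of Noxa, at 0, 108.5, 46.0 and 28.2 CPM. Mdm2, which is both a target and an inhibitor of p53, had 90.7, 110, 56.2 and 56.3 CPM, a ratio of 1.95 (1.31 to 2.95) between the libraries labelled DMD. In the satellite cells without arrest UMIs the same 4 genes were 2-fold or more higher in TA labelled DMD, of 7 tested, with a median of 1.14.

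The S100, annexin and galectin group holds calcium-binding, membrane-binding and sugar-binding proteins. Of 14 tested, 12 were 2-fold or more higher in members of TA labelled DMD than of EOM labelled DMD and none was lower, with a median of 1.44. Of these 12, only Lgals3 reached the 100 CPM needed for testing in TA alone, so it could not have counted as lower. Vim, which encodes vimentin and is raised in activated and mesenchymal cells, stood at 1541, 9557, 1518 and 2423 CPM in members of TA labelled WT, TA labelled DMD, EOM labelled WT and EOM labelled DMD. S100a4 stood at 212, 3611, 777 and 535 CPM, S100a6 at 45.3, 3051, 199 and 1318 CPM, and Lgals3, the galectin 3 gene, at 15.1, 475, 35.8 and 56.3 CPM. TA labelled DMD was the highest library for each of the 4. In the satellite cells without arrest UMIs 9 of 14 were higher and none lower, with a median of 1.57. The group was also higher in members than in the rest within TA labelled DMD, where its summed level was 37150 CPM (36688 to 37617) against 25532 CPM (24823 to 26256). The sums were 15262 against 12233 CPM, 15841 against 8669 CPM and 11736 against 7802 CPM in TA labelled WT, EOM labelled WT and EOM labelled DMD, so members were above the rest in all 4. Single members held much of some genes. In EOM labelled WT the highest cell held 621 of 1143 Tmsb4x, 265 of 316 Crip1 and 151 of 152 S100a4 UMIs. In EOM labelled DMD it held 500 of 936 S100a6 and 560 of 1721 Vim UMIs, and in TA labelled DMD 1485 of 6342 Vim UMIs. The part of such cells in the sums was not tested.

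The TGF-beta and BMP list had 4 of 5 tested genes higher in TA (Id1, Id2, Ltbp1 and Id3) and none lower, with a median of 1.22, and 3 of 5 in the rest. In members Id1, Id2 and Ltbp1 reached the 100 CPM needed for testing in TA alone, so they could not have counted as lower. Id3, an inhibitor of myogenic factors that BMP induces, was at 710, 662, 210 and 321 CPM in members. Of 15 secreted factors 5 were higher (Lgals3, Plau, Spp1 and Timp1 among them) and 3 lower (Cxcl2, Igfbp5 and Ccl2). Lgals3 and Plau reached 100 CPM in TA alone, and Cxcl2 and Ccl2 in EOM alone. In EOM labelled DMD 72 of 75 Cxcl2 UMIs and 97 of 123 Ccl2 UMIs lay in 1 member each, and after thinning 8 of 13 factors were higher and 1 lower. Spp1, the osteopontin gene, stood at 0, 333, 0 and 128 CPM.

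Among the genes ranked highest in TA were several of other cell types or of matrix. Fabp4, a fatty acid carrier of capillaries and adipocytes, stood at 1587, 1317, 792 and 59.1 CPM in members of TA labelled WT, TA labelled DMD, EOM labelled WT and EOM labelled DMD, and at 158, 2884, 32.3 and 27.9 CPM in the rest. In TA labelled DMD it was seen in 65.3% of members, and in both libraries labelled WT nearly all UMIs came from at most 2 cells each. Ccn1, a matrix protein gene and target of YAP, stood at 1825 against 179 CPM, Postn, the periostin gene, at 173 against 12.7 CPM, and Ankrd1, another YAP target, at 240 against 22.5 CPM. Ecm1 (193 against 8.45 CPM), Sfrp2 (124 against 5.63 CPM), C1qtnf3 (395 against 39.4 CPM), Sncg (197 against 16.9 CPM) and Aqp1 (262 against 21.1 CPM) completed the ranking with Neb. With the members holding Myog left out, the log2 ratio of Ankrd1 was 0.25 in place of 2.94 and that of Neb 0.92 in place of 2.93.

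Genes ranked lowest in TA included Ntrk2, the receptor of brain-derived neurotrophic factor, with 3.01 against 117 CPM. It was seen in 42% of members of EOM labelled DMD. Others belong to muscle fibres: Chchd10 (45.2 against 859 CPM), Myoz1 (16.6 against 334 CPM), Hspb6 (28.6 against 324 CPM) and Ddit4l2 (22.6 against 362 CPM), with Rcan2 at 4.52 against 114 CPM. Of 18 early differentiation genes 12 were lower and 4 higher in TA, and of 8 myofibre genes 7 were lower. The 4 higher ones reached 100 CPM in TA alone, and Tnnt1, Tnnc1, Myl4, Tnni1 and Mef2c among the lower in EOM alone. Between 6 and 8 of the 8 myofibre genes were lower under each alternative choice of cells. The part of the 13 members of EOM labelled DMD with 10 or more UMIs of fibre genes was not tested.

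**Figure D4:**
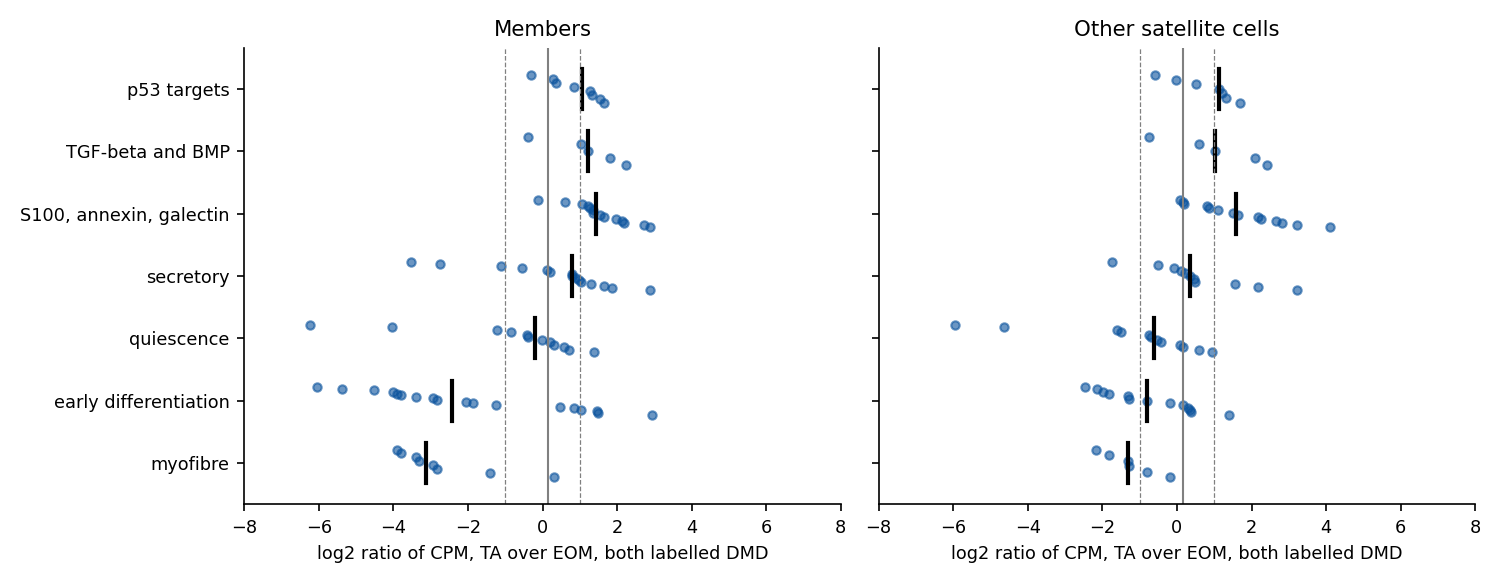
Log2 ratio of CPM (prior 10 CPM) between TA and EOM labelled DMD for each gene of 7 lists with at least 100 CPM in either library, in members (left) and in the other satellite cells (right). Black bars are list medians, the solid grey line the median of all genes tested, and dashed lines 2-fold. The list medians of the p53 targets were 1.07 and 1.14 in the 2 panels.

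Members of EOM labelled DMD and EOM labelled WT, 100 and 24 cells with 710226 and 195627 UMIs, were compared in the same way. Of 1696 genes 150 (8.84%) were higher and 105 (6.19%) lower in EOM labelled DMD, with a median of -0.08. The higher genes were led by those of muscle fibres: Tpm2, a tropomyosin gene, at 1197 against 20.4 CPM, Cryab, a small heat shock protein gene, at 950 against 20.4 CPM, and Tpm1 at 1333 against 97.1 CPM. Of 14 early differentiation genes 12 were higher and none lower, and all 8 myofibre genes tested were higher. Those 12 and those 8 reached the 100 CPM needed for testing in EOM labelled DMD alone, so they could not have counted as lower. Tpm2 was seen in only 24 of 100 members. Cxcl1, a chemokine gene that draws neutrophils, stood at 711 against 20.4 CPM, with 282 of 505 UMIs in 2 cells. The matrix genes Dcn (808 against 86.9 CPM) and Col3a1 (190 against 15.3 CPM) were higher too, but 447 of 574 Dcn UMIs came from 2 cells, and with at least 2 arrest UMIs required the log2 ratio of Dcn turned to -0.48. Abi3bp, another matrix gene, was at 114 CPM in EOM labelled DMD with no UMI in EOM labelled WT, at least 7.44-fold higher than a floor of 3 counts in that library. Ccng1 was the p53 target of 5 tested past 2-fold, at 213 against 40.9 CPM (5.2-fold, 2.57 to 12.3). Nppc and Chrdl2 were lower, by 2.39-fold (2.22 to 2.59) and 2.49-fold (1.91 to 3.23).

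The genes lower in EOM labelled DMD rest on 24 members and often on fewer. Hspa1b, the inducible HSP70 gene, stood at 160.5 against 1334 CPM and was seen in 83.3% of members of EOM labelled WT against 36%. Hba-a1, a haemoglobin gene, was at 43.6 against 256 CPM. Fabp4 stood at 59.1 against 792 CPM, but 150 of the 155 UMIs in EOM labelled WT came from 2 cells, and with the highest doublet scores left out its log2 ratio turned from -3.54 to 0.81. Ets1, an endothelial transcription factor gene, turned from -2.28 to 0.16 in the same way. Klf2 (4.22 against 148 CPM), Mcam (22 UMIs against 33), Sh3bgrl3, Mest, Lipe and Arpc1b completed the ranking.

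Within TA labelled DMD, the 58 members with a Cdkn2a UMI were compared with the 66 that had Cdkn1a only, at medians of 5012 and 3263.5 UMIs. Of 1800 genes 105 (5.83%) were higher and 65 (3.61%) lower in the members with Cdkn2a, with a median of 0.08. The higher genes named here are mostly known from differentiating muscle. Of 16 early differentiation genes tested, 13 were 2-fold or more higher and none was lower, with a median of 2.40. At least Neb, Tnnt2, Actc1 and Mymk could not have counted as lower. They reached the 100 CPM needed for testing only with Cdkn2a, at 60.7, 10.7, 7.14 and 0 CPM in the members with Cdkn1a only. Nor could Tnnt3, Myl1 and Ckm, which had too few UMIs outside 1 cell to reach 100 CPM with Cdkn1a only. For 7 of the 13 a single cell held most UMIs of the 124 members: 215 of 224 for Tnnt3, 136 of 153 for Myl1, 182 of 213 for Tnnc2, 183 of 270 for Mylpf, 59 of 73 for Ckm, 147 of 216 for Acta1 and 236 of 328 for Neb. Under a stricter cell filter (1000 UMIs or more, mitochondrial share up to 10%) 5 of 8 were higher, with a median of 1.26. Mymk, the fusogen gene myomaker, had 39 UMIs in 17 of 58 members with Cdkn2a and none in the 66 others, at least 9.49-fold more than a floor of 3 counts. Tnnt2, the embryonic and cardiac troponin T gene, had 126 against 3 UMIs, and Actc1, cardiac actin, which is made early in muscle differentiation, 77 against 2. Sln, the sarcolipin gene, had 72 against 0, Klhl41 58 against 0 and Cavin4 49 against 0, where 56 of the 72 Sln UMIs and 29 of the 58 Klhl41 UMIs came from 1 cell each. Neb had 311 against 17, Dclk1, a microtubule-linked kinase gene, 113 against 2, Aif1l 55 against 1 and Cox6a2, a muscle subunit of cytochrome oxidase, 84 against 4.

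This difference moved with Myog, the factor that starts terminal differentiation. Of the 22 members of TA labelled DMD with a Myog UMI, 21 had both Cdkn1a and Cdkn2a and 1 had Cdkn1a only. With those 22 cells left out, 103 genes in place of 170 were past 2-fold, over a changed set of genes tested. Of the early differentiation genes 1 of 6 was then higher, with a median of 0.12. Mymk then had a log2 ratio of 0, Aif1l 0.01, Actc1 -0.46 and Cox6a2 -0.50, while Dclk1 (2.61), Klhl41 (1.90), Neb (1.36) and Tnnt2 (1.20) stayed past 2-fold. That leaves 37 members with Cdkn2a and no Myog UMI. In the other libraries Myog had no UMI in members labelled WT and 56 UMIs in 10 members of EOM labelled DMD, 47 of them in 2 cells.

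Genes lower in the members with Cdkn2a kept their direction when the Myog cells were left out. Pmaip1 had 17 against 55 UMIs, 44.3 against 196 CPM, with a log2 ratio of -1.92 and of -1.57 without the Myog cells. Ddit3, the stress factor CHOP, was at 65.2 against 214 CPM, and Bmp4 at 88.7 against 264 CPM. Mafk, a small MAF factor, was at 36.5 against 125 CPM, and Nnat was at 88.7 against 275 CPM. Cxcl12, Clu, Ramp2 and Flt1, of which Ramp2 and Flt1 are endothelial markers, were lower by log2 ratios of -1.52, -1.47, -1.81 and -1.46. Phlda3 did not differ beyond counting error (1.16-fold, 0.916 to 1.48). Of 14 S100, annexin and galectin genes 6 were higher, with Vim at 2.6-fold (2.45 to 2.77).

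**Figure D5:**
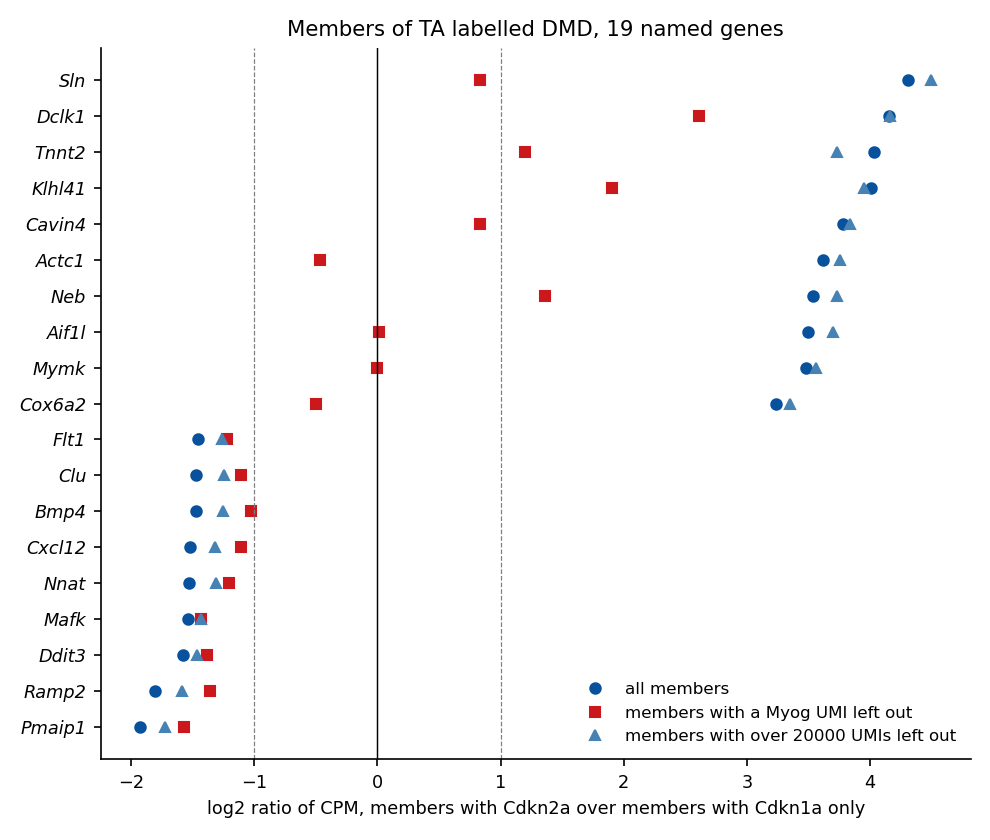
Log2 ratio of CPM (prior 10 CPM) between members of TA labelled DMD with a Cdkn2a UMI and those with Cdkn1a only, for 19 named genes, with all members, without members that had a Myog UMI, and without members of over 20000 UMIs. The 10 higher genes moved towards 0 without the Myog cells, and Actc1 and Cox6a2 fell below it, while the 9 lower genes shown stayed below -1.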

How the data were processed

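Total cells of 4 libraries were profiled with 10x Genomics 3' chemistry, per the labels' protocols. The deposited matrices hold UMI counts per gene and barcode from Cell Ranger 4.0.0, per the file headers, against rn6, per the submitters' processing notes. The gene annotation and cell calling are not given in sources used here. Files hold between 1917 and 8944 barcodes per library with at least 500 UMIs each, and the kept cells held medians of 2490, 1176, 3671.5 and 4540 UMIs in TA labelled WT, TA labelled DMD, EOM labelled WT and EOM labelled DMD. The members and the 28 gene lists (398 of 422 genes in the feature table) were chosen with earlier results of these data known.

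Counts of members and of the other satellite cells were summed per library. The sums were tested with edgeR 4.0.16 in R 4.3.3 (TMM factors, quasi-likelihood, library as block, Benjamini-Hochberg adjustment, threshold 0.05), a fit that was tested on simulated data. There it recovered 56% of 2-fold increases and 42% of 2-fold decreases. At 4-fold it recovered 100% and 97.8%. The test can thus miss 2-fold differences. DESeq2 1.42.0, other filters and each library left out were alternatives. Between libraries, genes with at least 100 CPM in either group were compared by log2 ratios with a prior of 10 CPM, with no test. Shares have exact Clopper-Pearson intervals, levels exact Poisson intervals and folds exact conditional binomial intervals. Thinned values use 1000 UMIs drawn per cell. Named from the ratios were the 10 highest and 10 lowest genes with UMIs in at least 20% of the cells of the higher group. In the lists, up to 4 genes with the highest level were named, and other genes were chosen after their values were seen. A few genes that the rule names are not reported here. Doublets were scored with scanpy 1.11.5 (Scrublet), whose automatic call marked 8, 0, 5 and 16 cells and was not used. No cell was removed as a doublet, and leaving out the highest scores at 0.8% per 1000 cells was an alternative.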

Additional observations from a re-analysis of the deposited data

Results flagged for a closer look

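For 4 genes among those named or in the gene lists, the ratio of members to the other satellite cells had 1 sign in both libraries of a label or muscle and the opposite sign in both others, each with a counting interval clear of no change. These differences were not tested, and other genes differed in sign between libraries without meeting this condition. Cox6a2 had a log2 ratio of 0.979 in TA labelled DMD and of 2.50 in EOM labelled DMD, but of -3.05 and -2.45 in TA and EOM labelled WT. Tpm2 had 1.02 and 2.19 in the libraries labelled DMD, and -2.88 and -2.50 in those labelled WT. Both are genes of muscle fibres and rest on 1 to 4 UMIs in members labelled WT. Aqp1, an aquaporin of capillaries, went the other way, with -0.827 and -0.93 in TA and EOM labelled DMD and 3.59 and 3.54 in those labelled WT, where 33 of 34 UMIs lay in 1 member of TA and 43 of 43 in 2 members of EOM. Rgs5, a pericyte gene, differed by muscle, with -2.33 and -3.38 in TA labelled DMD and WT and 0.93 and 1.53 in EOM labelled DMD and WT, on 10 and 21 UMIs in members of EOM.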

How the results depend on the processing

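Shares of members depended on depth: thinned to 1000 UMIs they were 6.06%, 42.4%, 4.11% and 13.2% in TA labelled WT, TA labelled DMD, EOM labelled WT and EOM labelled DMD. In TA labelled DMD the share was 70% under a stricter cell filter (1000 UMIs or more, mitochondrial share up to 10%), and 67.7% with at least 3 satellite UMIs. In place of 0 genes higher in members, there were 2 with that stricter cell filter, 5 without the highest doublet scores, 10 with at least 3 satellite UMIs, 1 without Myog cells, 5 without cells with at least 3 UMIs of other cell types, 1 with at least 2 arrest UMIs, 9 for members with Cdkn2a, 6 with DESeq2 and 54 with no filter on low counts. In place of 0 genes lower there were 2 without the highest doublet scores, 17 for members with Cdkn2a and 19 with no filter. These fits tested 3442 to 15125 genes, the most with DESeq2 and with no filter, against 5503 in the main fit. The sums of members with Cdkn2a rest on 1, 58, 1 and 3 cells, so the counts for them support no call. Leaving out 1 library gave 0 to 8 genes higher and 0 to 1 lower, with 8 and 1 without EOM labelled WT, 2 higher without TA labelled DMD and 1 without TA labelled WT. RLE factors and the thinned fit, with 1282 genes tested, gave 0 in both directions. Of 155 values of single genes under alternatives of the fit, 107 kept direction and side of the threshold, 46 passed it and 2 reversed: Apoe, at -0.000463 with at least 2 arrest UMIs and -1.18 for members with Cdkn2a.

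The 273 genes past 2-fold between TA and EOM labelled DMD became 506 after thinning, 458 with at least 2 arrest UMIs and 464 from 50 CPM. The 255 between both EOM libraries became 842, 631 and 550 in the same order, and 405 with the stricter cell filter. The 170 between members with Cdkn2a and with Cdkn1a only became 649 after thinning, 103 without Myog cells, 359 from 50 CPM and 283 with cells weighted equally. The set of genes tested changed with each setting, so these counts do not measure a stronger or weaker difference. Of 520 ratios of named genes under alternatives, 489 stayed past 2-fold in their direction, 24 fell short and 7 reversed. These were Dcn (-0.48 with at least 2 arrest UMIs), Fabp4 (0.81 without the highest doublet scores and 0.81 without cells with UMIs of other types), Ets1 (0.16 without the highest doublet scores) and Arpc1b (0.22 after thinning) between the EOM libraries, and Actc1 (-0.46) and Cox6a2 (-0.50) without Myog cells. The cause was not tested. Equal weights, RLE factors and leaving out cells over 20000 UMIs, which gave 3 genes higher in members, were chosen after seeing the data. Members and the rest of a library were paired in the fit through the library, while the libraries themselves share no replicate numbers in the labels. The 8 members of TA labelled WT limit every value there.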
